A study of Mus with 21 samples.

Results

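The genes described here code for the non-collagen glycoproteins and proteoglycans of the extracellular matrix. They are 44 genes, found by their symbols among the 55335 genes of the deposited count table, and all 44 passed the minimum of 10 normalised counts summed over the libraries that left 30552 genes to test. By textbook role, 8 make the matrix of neural tissue, 14 make basement membrane and 22 make connective tissue matrix. RNA-seq was done on poly(A) RNA from whole brains of female mouse embryos at E17.5, shortly before birth, in 21 libraries. There were 5 wild-type embryos (Wapl +/+; Nipbl +/+, called WT), 3 Nipbl heterozygotes (Wapl +/+; Nipbl +/delta, called Nipbl+/-), 7 Wapl heterozygotes (Wapl delta/+ or +/delta; Nipbl +/+, called WaplΔ/+) and 6 embryos heterozygous at both genes, called double heterozygotes.

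NIPBL loads the cohesin ring onto chromosomes and WAPL takes it off, and the study asked how losing a copy of either gene, or of both, changes the brain transcriptome. The Nipbl allele was deleted in the germ cells of the sires by the Stra8-icre transgene, and the Wapl delta allele came from an earlier cross to E2a-Cre mice that removed the promoter and the first exons, so neither loss is restricted to a brain cell type. The embryos came from 2 kinds of cross, and the labels do not say which litter each came from. Another Nipbl+/- library, set aside by the study for low read numbers, is not analysed here.

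The matrix of the developing brain is unlike that of other organs. Between neural cells it is built from hyaluronan, from proteoglycans of the lectican family that bind it, from link proteins that lock the bond, and from tenascins that bridge the proteoglycans; glial cells and their precursors make much of it. Laminins, nidogens, agrin and perlecan form the basement membranes under the meninges and around blood vessels, while fibronectin, fibrillins, fibulins and small leucine-rich proteoglycans are made chiefly by the fibroblasts and mural cells of the meninges and vessel walls.

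Total counts ran from 25682566 to 35818767 per library, with a median of 31830396. Nipbl RNA fell by 0.89 on the log2 scale in Nipbl+/- brains and by 0.86 in double heterozygotes, and Wapl RNA fell by 1.09 in WaplΔ/+ brains and by 1.01 in double heterozygotes, so every group matched its label. Nipbl had 2019 to 2339 normalised counts in WT against 1117 to 1288 in Nipbl+/- and 1148 to 1249.6 in double heterozygotes, and Wapl had 1389 to 1563 in WT against 596 to 755 in WaplΔ/+ and 710.04 to 778 in double heterozygotes, with no overlap. The libraries also split into 2 sets by their mt-Nd3 counts. WT replicates 4 and 5, WaplΔ/+ replicates 3 to 7 and double heterozygote replicates 5 and 6 had 52 to 106 counts, while the other libraries had at most 6. Among libraries with a mutant Wapl allele the split followed the order in which the labels write the Wapl alleles, and all 3 Nipbl+/- libraries were in the low set. Levels given below are normalised counts, which are comparable between libraries for a gene but, without a transcript length, not between genes. Levels summed over genes are given as CPM, counts scaled to a common library size. All adjusted p-values are from edgeR's quasi-likelihood test with Benjamini-Hochberg adjustment over the 30552 genes, and a gene was called below an adjusted p of 0.1.

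Loss of a Nipbl copy was accompanied by lower RNA of the neural matrix. In Nipbl+/- brains 6 of the 8 neural matrix genes fell and none rose, with a median log2 fold change of -0.32, against -0.0086 over all genes tested. Tnr, which codes for tenascin-R, and Reln, which codes for reelin, fell most firmly, to 70.5% and 76.2% of the WT mean. Among the connective tissue genes 5 of 22 fell and 2 rose (median -0.09), and among the basement membrane genes 2 of 14 fell and 1 rose (median -0.01; this median was 0.02 when library sizes were scaled over all 21 libraries). Of the 44 genes 16 passed the threshold, with 3 rises and 13 falls; of all genes tested 11.2% were called in this comparison, 4.25% higher and 6.96% lower. Scaling over all 21 libraries moved the share of higher calls among all called genes from 37.9% to 54.6%, and with it 5 of the 44 genes were called higher and 11 lower, 5 of those 11 in the neural matrix.

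In WaplΔ/+ brains fewer matrix genes were called. Tnr, Reln and Tnc, 3 of the 8 neural matrix genes, fell, and the median of the 8 was -0.11, against -0.0034 over all genes. Basement membrane and connective tissue genes had medians of 0.08 and 0.13, which among the libraries low in mt-Nd3 turned to -0.03 and -0.10, with 9 of 14 and 14 of 22 genes negative. In the basement membrane 2 genes rose and 1 fell, and in connective tissue matrix 1 rose and 2 fell. Of the 44 genes 9 thus passed the threshold, with 3 rises and 6 falls, where 2.22% of all genes were called, 0.769% higher and 1.45% lower. Scaling over all 21 libraries moved the share of higher calls among all called genes from 34.7% to 49.9%, and then 6 members were called higher and 6 lower. The count rested on few libraries. It was 0 without WT replicate 1 or without WT replicate 2, 1 without WT replicate 5, 5 without WT replicate 4 or WaplΔ/+ replicate 4, and 16 without WaplΔ/+ replicate 2. It was also 0 when all 4 groups shared a single fit, and 0 among the libraries low in mt-Nd3. The calls over all genes moved in the same fits. From 677 they became 13, 9 and 99 without WT replicate 1, 2 and 5, and 1534 without WaplΔ/+ replicate 2. They became 7 in the single fit and 47 among the libraries low in mt-Nd3. With DESeq2 in place of edgeR, 15 members were called in WaplΔ/+, 9 higher and 6 lower. The 6 calls it added, all higher, were Nid2, Agrn, Fn1, Lum, Bgn and Postn. Over all genes DESeq2 called 700 higher and 722 lower.

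In the double heterozygotes 5 of the 8 neural matrix genes fell (median -0.19, against 0.0007 over all genes), no basement membrane gene was called, and of the connective tissue genes 2 fell and 1 rose. The 8 called members, 1 higher and 7 lower, compare with 3.28% of all genes called, 0.812% higher and 2.46% lower. The count was 15 without double heterozygote replicate 5, and it was 3 without WT replicate 1, 4 without WT replicate 4, WT replicate 5 or double heterozygote replicate 6, and 5 without WT replicate 2 or double heterozygote replicate 4. Calls over all genes moved too, from 1001 to 2504 without double heterozygote replicate 5, 483 without WT replicate 1 and 454 without WT replicate 4. These comparisons share the same 5 WT libraries, so their results are not independent of one another.

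**Figure D1:**
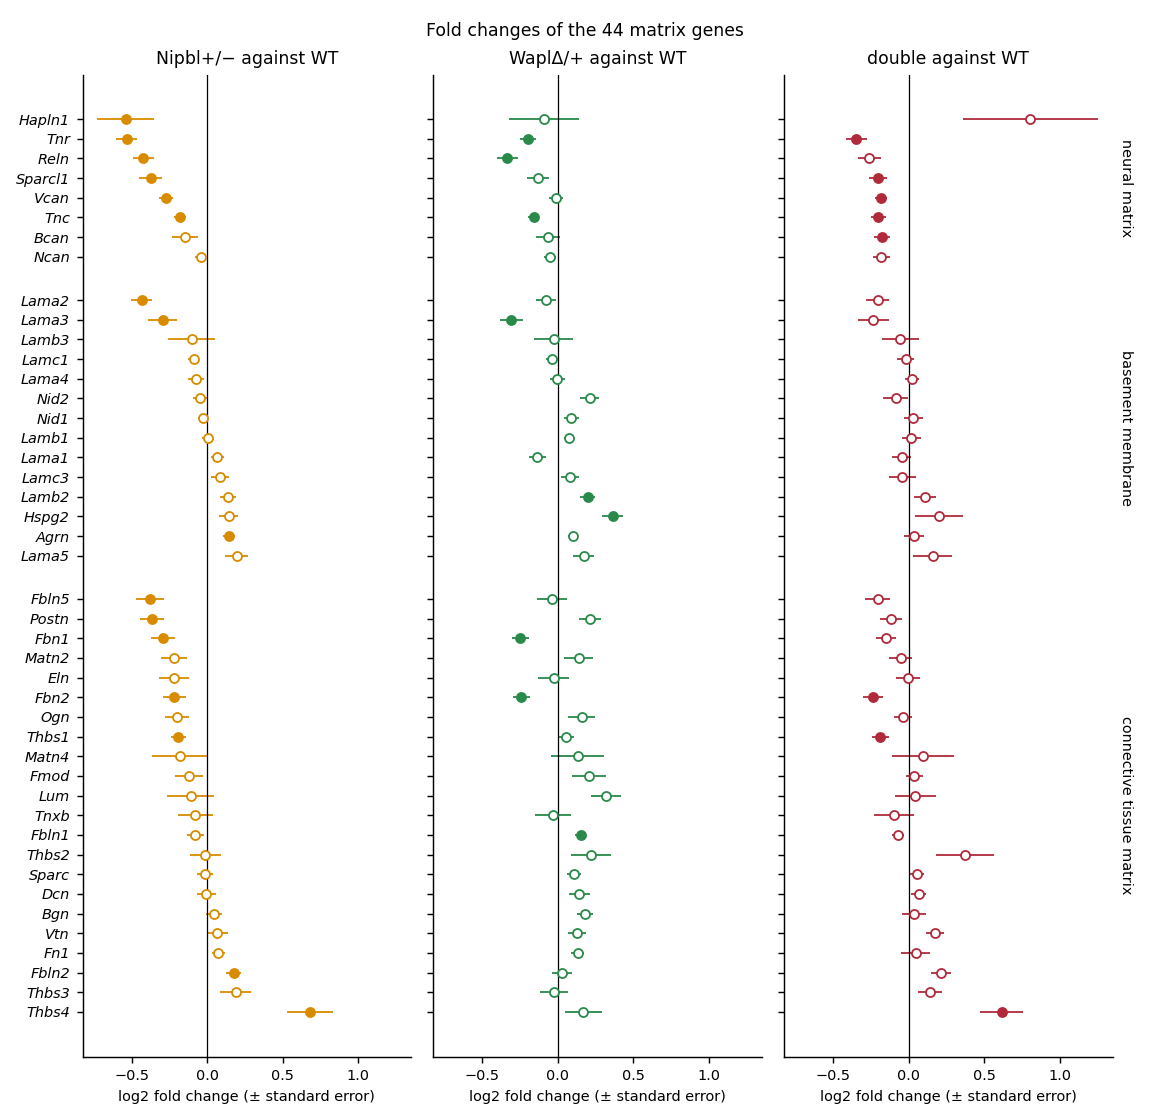
Log2 fold change of each of the 44 genes (points) with its standard error (bars) in Nipbl+/-, WaplΔ/+ and double heterozygous brains against WT, grouped by role and ordered by the Nipbl+/- value; filled points were called at an adjusted p below 0.1. All 8 neural matrix genes lie left of 0 in the Nipbl+/- panel, from -0.54 for Hapln1 to -0.04 for Ncan, while the basement membrane genes lie on both sides.

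Tnr codes for tenascin-R, a brain-restricted tenascin made by cells of the oligodendrocyte lineage and by some neurons. It lies on chromosome 1 at 159523729 to 159931729 (GRCm38.p6), where the long non-coding RNA gene Gm31348 overlaps it. The WT libraries had 2269.6, 2138, 2037, 2070.4 and 2068 normalised counts and the Nipbl+/- libraries 1256, 1689.6 and 1534. WaplΔ/+ libraries ran from 1625 through a median of 1889.9 to 2079, and double heterozygotes from 1438 through 1602 to 1962. Every Nipbl+/- and every double heterozygous library was below every WT library, while the WaplΔ/+ range overlapped the WT range. Tnr fell by 0.53 (SE 0.07, adjusted p = 0.00019) in Nipbl+/- and by 0.35 (SE 0.07, adjusted p = 0.014) in double heterozygotes, and both calls held without any single library. The fall of 0.20 in WaplΔ/+ (SE 0.05, adjusted p = 0.091) lost its call without any of 8 libraries in turn, 4 of them WT, with adjusted p up to 0.24.

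Reln codes for reelin, the secreted signal from Cajal-Retzius cells that directs the layering of cortical neurons. The WT libraries had 9676, 10533, 7882, 9037 and 9398 normalised counts, and the Nipbl+/- libraries had 6619, 7514 and 7139.6. The range in WaplΔ/+ was from 6466 through 7416 to 9009.7 and double heterozygotes from 6841 through 7768 to 8808. The 3 Nipbl+/- libraries were below all WT libraries; the other groups overlapped the WT range, in which replicate 3 was lowest. Reln fell by 0.42 in Nipbl+/- (SE 0.07, adjusted p = 0.0010), where the call held without any single library, and by 0.33 in WaplΔ/+ (SE 0.07, adjusted p = 0.038), where it was lost without WT replicate 1, 2 or 5 (adjusted p up to 0.14). In double heterozygotes its log2 fold change was -0.26 (SE 0.08, adjusted p = 0.10) and was not called. It was called lower there in DESeq2, with no filter on low counts, and without WT replicate 3 or double heterozygote replicate 3 or 5. Of the 6 markers of Cajal-Retzius cells, 4 rose in Nipbl+/- (Lhx5, Nhlh2, Lhx1 and Ebf3, by 0.24 to 0.45) and Calb2 fell by 0.28, where 4.25% of all genes were called higher and 6.96% lower. Trp73, the other marker, was not called. The summed level of the 6 markers was 241 to 267 CPM in WT, 259 to 301 in Nipbl+/-, 252 to 293 in WaplΔ/+ and 248 to 303 in double heterozygotes. No marker of the list was at 0, and whether the number of these cells bears on the Reln values was not tested. Whether the listed markers are particular to these cells in whole brain was not tested either.

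Sparcl1 codes for hevin, a protein that astrocytes secrete and that promotes synapse formation. Its WT values were 12199, 11873, 11784, 13552 and 12667 normalised counts, against 8815, 11719.8 and 8778 in Nipbl+/-. In WaplΔ/+ the libraries ran from 9624 through 10949 to 14008 and double heterozygotes from 9213 through 11112 to 11786. Nipbl+/- replicate 2 lay just under the WT range, and its sister libraries lay far under it. Sparcl1 fell by 0.37 in Nipbl+/- (SE 0.07, adjusted p = 0.0037), a call that held without any single library, and by 0.20 in double heterozygotes (SE 0.06, adjusted p = 0.091), a call that was lost without any of 9 of the 11 libraries in turn, with adjusted p up to 0.27. The WaplΔ/+ value was -0.13 (SE 0.07, adjusted p = 0.41).

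Vcan codes for versican, one of the lecticans, the hyaluronan-binding proteoglycans, and lies on chromosome 13 at 89655309 to 89743027, 43.5 kb from Hapln1. Its WT values were 4936, 4949, 4432, 4501 and 4546 normalised counts and its Nipbl+/- values 3867, 3790.0 and 4194, with no overlap. WaplΔ/+ libraries spanned 4255 to 4998 (median 4759.7), across the WT range, and double heterozygotes held a tight 4049.9 to 4251 (median 4145), all below WT. Vcan fell by 0.27 in Nipbl+/- (SE 0.05, adjusted p = 0.0021) and by 0.18 in double heterozygotes (SE 0.04, adjusted p = 0.020), and neither call was lost without any single library; in WaplΔ/+ the value was -0.01 (SE 0.04, adjusted p = 0.92).

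Bcan codes for brevican. It had 3955, 3825, 4224, 4551 and 3919 normalised counts in WT and 3796, 4537 and 2999 in Nipbl+/-, whose libraries spread over more than the whole WT range. Values in WaplΔ/+ went from 3341 through 3922 to 5229.9 and double heterozygotes from 3203 through 3649 to 3885. Bcan fell in double heterozygotes by 0.17 (SE 0.05, adjusted p = 0.097), and the call was lost without any of 7 of the 11 libraries in turn (adjusted p up to 0.29). Its values in Nipbl+/- and WaplΔ/+ were -0.15 (SE 0.09, adjusted p = 0.38) and -0.07 (SE 0.08, adjusted p = 0.76). The Nipbl+/- value was called with no filter on low counts and without Nipbl+/- replicate 2.

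Ncan codes for neurocan, which held 33.9% of the summed neural matrix CPM in WT, and it was the neural matrix gene that was called in no comparison. The WT libraries had 21289, 21105, 21947, 23309.7 and 22203 normalised counts and the Nipbl+/- libraries 21540.2, 22412 and 21329.7, all within the WT range. In WaplΔ/+ it ran from 19948 through 21212 to 22896 and in double heterozygotes up to 21285. Its log2 fold change was -0.04 in Nipbl+/- (SE 0.04), -0.05 in WaplΔ/+ (SE 0.04) and -0.18 in double heterozygotes (SE 0.06, adjusted p = 0.13). Double heterozygote replicate 5, at 15657, was far below its group's median of 19875. The double heterozygote value was called lower without that library, and also without replicate 3, in DESeq2 and with no filter on low counts.

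Tnc codes for tenascin-C, a glycoprotein of radial glia and germinal zones. It was called lower in each of the 3 mutant groups by a similar small amount. The WT libraries had 9857, 10438, 10232, 10007 and 10031 normalised counts and the Nipbl+/- libraries 8720.3, 9574 and 9044. Across WaplΔ/+ libraries it ran from 8526 through 8936 to 10054, and double heterozygotes from 7826 through 9103 to 9459.7. All Nipbl+/- and all double heterozygous libraries were below the WT range; of the WaplΔ/+ libraries replicate 2 was within it. The falls were 0.18 in Nipbl+/- (SE 0.04, adjusted p = 0.0070), 0.16 in WaplΔ/+ (SE 0.04, adjusted p = 0.050) and 0.20 in double heterozygotes (SE 0.05, adjusted p = 0.037). The WaplΔ/+ call was lost without WT replicate 1, 2 or 5 (adjusted p up to 0.17), and the Nipbl+/- call was lost when all 4 groups shared a fit (adjusted p = 0.16).

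Hapln1 codes for a link protein that fastens lecticans to hyaluronan and that cartilage makes in quantity. It was scarce, at 52.4, 51.9, 65.8, 49.5 and 44.6 normalised counts in WT and 42.2, 43.2 and 25.4 in Nipbl+/-. The WaplΔ/+ values ran from 24.6 through 39.8 to 93.0. Double heterozygotes ran from 39.1 through 51.7 to 305, the highest being replicate 1, with the next highest at 63.3. The fall of 0.54 in Nipbl+/- (SE 0.19, adjusted p = 0.097) was lost without any of 6 of the 8 libraries in turn (adjusted p up to 0.39) and in DESeq2. In double heterozygotes the log2 fold change was 0.81 (SE 0.45, adjusted p = 0.46), and -0.10 (SE 0.16, adjusted p = 0.89) without replicate 1. The pseudogene Gm8546 overlaps the Hapln1 gene, so reads could be divided between them.

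Double heterozygote replicate 1 was also the library richest in markers of bone and cartilage. Their summed level was 233 CPM there, and otherwise 32.5 to 86.7 CPM in double heterozygotes, 36.3 to 56.8 in WT, 40.3 to 80.8 in Nipbl+/- and 38.4 to 118 in WaplΔ/+. None of the 8 markers was called in WaplΔ/+ or double heterozygotes, 2 rose in Nipbl+/- (Col2a1 by 0.46 and Ibsp by 2.30), and none was at 0 in every library. Over all genes 4.25% were called higher in Nipbl+/-. Matn4, which codes for a matrilin that fills the matrix of cartilage and other tissues, was also highest in replicate 1, at 241 normalised counts against 132 in the next double heterozygote; its log2 fold change against WT was 0.10 (SE 0.20), and -0.18 (SE 0.13) without that library. The part of tissue adhering to the brain in these values was not tested.

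**Figure D2:**
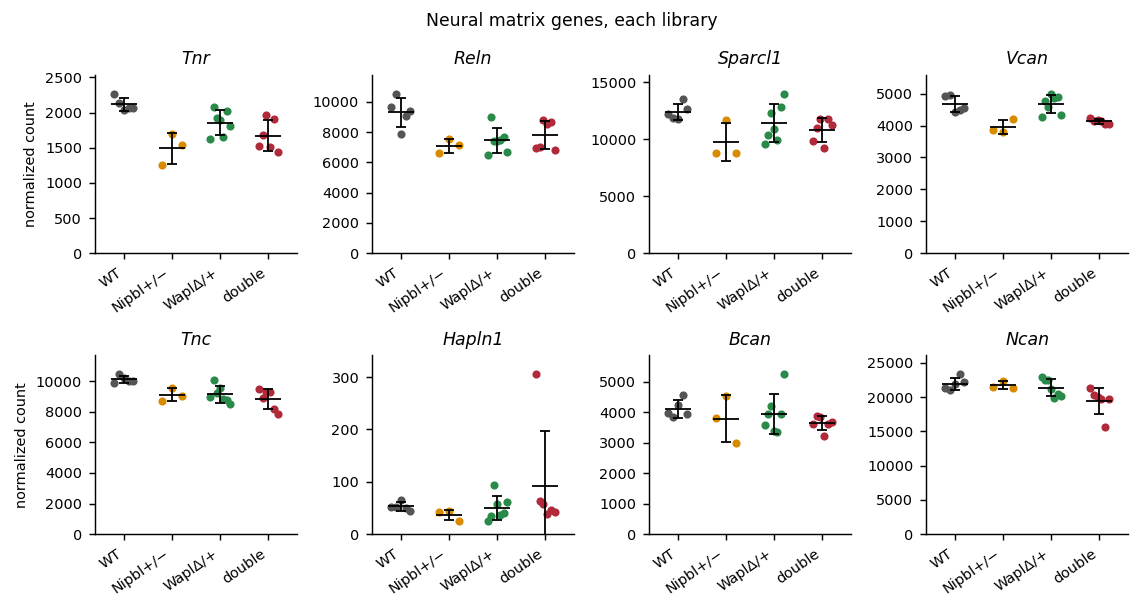
Normalised counts of the 8 neural matrix genes in each library (points) with the mean and SD of each genotype group (lines; the SD bar of Hapln1 in double heterozygotes runs past 0 and is clipped there). For Tnr, Reln, Sparcl1, Vcan and Tnc the 3 Nipbl+/- points lie below the 5 WT points; the Hapln1 point at 305 is double heterozygote replicate 1.

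**Figure D3:**
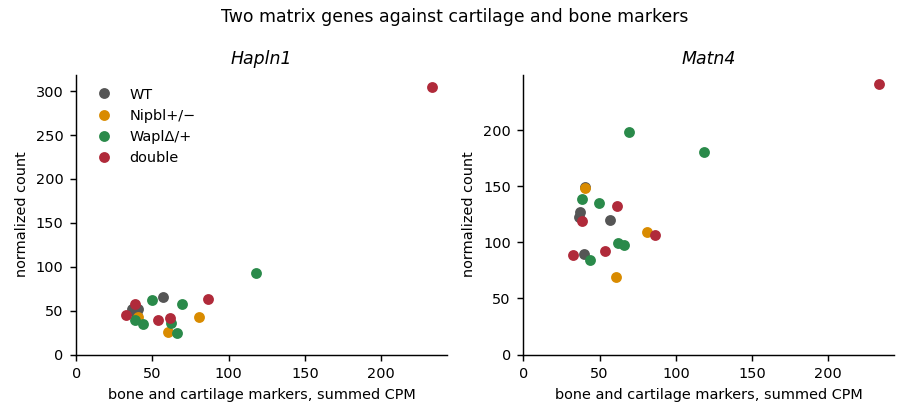
Normalised counts of Hapln1 and Matn4 (vertical axes) against the summed level of 8 bone and cartilage markers in CPM (horizontal axes) in each of the 21 libraries, coloured by genotype. The point at 233 CPM is double heterozygote replicate 1, which has the highest value of both genes.

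The basement membrane genes changed less, and not in a common direction. Lama2 codes for the laminin alpha chain of muscle, nerve and vessel basement membranes, deficient in a congenital muscular dystrophy. Its WT values were 489.7, 561, 576, 497 and 517 normalised counts, its Nipbl+/- values 426, 390.2 and 381, all below WT. WaplΔ/+ libraries ran from 415 through 494 to 556 and double heterozygotes from 365 through 475 to 511, both overlapping WT. Lama2 fell by 0.43 in Nipbl+/- (SE 0.07, adjusted p = 0.00078), the call holding without any single library; its values in WaplΔ/+ and double heterozygotes were -0.08 (SE 0.06, adjusted p = 0.61) and -0.20 (SE 0.08, adjusted p = 0.21). It is the longest gene of the 44, 636 kb on chromosome 10 at 26981285 to 27617191, and 3 annotated non-coding genes or pseudogenes overlap it.

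Lama3, which codes for the laminin alpha chain of epithelial basement membranes, had 320.4, 286, 266, 314 and 325 normalised counts in WT and 213, 256 and 287 in Nipbl+/-. The range in WaplΔ/+ was from 218 through 244 to 292, and double heterozygotes from 203 through 253 to 313. Every mutant group overlapped the WT range. Lama3 fell by 0.29 in Nipbl+/- (SE 0.10, adjusted p = 0.078) and by 0.31 in WaplΔ/+ (SE 0.08, adjusted p = 0.059), and its value was -0.23 in double heterozygotes (SE 0.10, adjusted p = 0.30). The Nipbl+/- call was lost without WT replicate 1, 2, 4 or 5 or Nipbl+/- replicate 1 (adjusted p up to 0.40), and the WaplΔ/+ call without WT replicate 1, 2, 4 or 5 or WaplΔ/+ replicate 4 or 5 (up to 0.17).

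Agrn codes for agrin, a heparan sulfate proteoglycan that clusters receptors at the neuromuscular junction and is also made by neurons and vessels; it held 57.1% of the summed basement membrane CPM in WT. WT libraries had 26997, 26219, 29071, 28099 and 27435 normalised counts and Nipbl+/- libraries 31343, 30463 and 31532, all above WT. In WaplΔ/+ the libraries ran from 28421 through 29578 to 31166, and double heterozygotes from 21878, in replicate 5, through 29734.5 to 31435. Agrn rose by 0.15 in Nipbl+/- (SE 0.04, adjusted p = 0.024), a call that held without any single library and was lost when all 4 groups shared a fit (adjusted p = 0.19). The call was also lost with a replicate block and among the libraries low in mt-Nd3. The values in WaplΔ/+ and double heterozygotes were 0.10 (SE 0.03, adjusted p = 0.14) and 0.04 (SE 0.07, adjusted p = 0.88).

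Hspg2, which codes for perlecan, the large heparan sulfate proteoglycan of vessel walls, rose in WaplΔ/+. WT libraries had 2189, 2267, 2878, 2364 and 2291 normalised counts, and WaplΔ/+ libraries ran from 2662 through 3267 to 3454. Nipbl+/- libraries had 2587, 2656 and 2852 and double heterozygotes ran from 1318, in replicate 5, through 2962 to 3716. The WaplΔ/+ and WT ranges overlapped only through WT replicate 3. The rise was 0.36 (SE 0.07, adjusted p = 0.038) over all libraries, and the call was lost without WT replicate 1 or 2 (adjusted p up to 0.13). Among libraries low in mt-Nd3 the value was 0.11 (adjusted p = 0.65). Hspg2 stood at 0.14 in Nipbl+/- (SE 0.07, adjusted p = 0.24) and at 0.20 in double heterozygotes (SE 0.16, adjusted p = 0.64).

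Lamb2 codes for the laminin beta chain of synaptic and vessel basement membranes. It had 1587.9, 1588, 1814, 1710.4 and 1686 normalised counts in WT and 2091, 1847 and 1714 in Nipbl+/-. Values in WaplΔ/+ went from 1684 through 1943 to 2179 and double heterozygotes from 1456 through 1798 to 2289. All groups overlapped. Lamb2 rose by 0.20 in WaplΔ/+ (SE 0.05, adjusted p = 0.061), a call lost without WT replicate 1, 2, 4 or 5 or WaplΔ/+ replicate 4 or 5 (adjusted p up to 0.21), and among low mt-Nd3 libraries the value was 0.10 (adjusted p = 0.60).

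The other 9 basement membrane genes were called in no comparison. They are Lama1, Lama4, Lama5, Lamb1, Lamb3, Lamc1 and Lamc3, which code for laminin chains, and Nid1 and Nid2, which code for the nidogens that tie laminin to collagen. In Nipbl+/- their values lay between -0.10 for Lamb3 and 0.20 for Lama5. Lama5 was at 631 ± 77.3 normalised counts in WT (SD, n = 5) and 738 ± 16.7 in Nipbl+/- (n = 3; SE of the fold change 0.08, adjusted p = 0.13), and with library sizes scaled over all 21 libraries it was called higher. Nid1, at 4049 ± 86.0 in WT and 4059 ± 81.2 in Nipbl+/-, and Lamb1, at 2428 ± 59.8 and 2486 ± 67.0, were the best measured of those near no difference, with standard errors of 0.03 and 0.04. Lamb3 was the scarcest, with group means of 48.0 to 50.6. In WaplΔ/+ Nid2 was at 2181 ± 242 normalised counts (n = 7), against 1869 ± 114 in WT. It was called higher there in DESeq2, with no filter on low counts and with library sizes scaled over all 21 libraries. A replicate block, and leaving out WaplΔ/+ replicate 1 or 2, also called Nid2 higher. Lama1, at 1119 ± 49.9 in WT and 1025 ± 99.8 in WaplΔ/+, was called lower without WaplΔ/+ replicate 2.

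In connective tissue matrix Fbn1, Fbn2, Fbln5, Thbs1 and Postn RNA fell in Nipbl+/-, and Thbs4 and Fbln2 RNA rose. When all 4 groups shared a fit, none of the 5 falls was called, nor the rise of Fbln2. Fbn1 and Fbn2 code for the fibrillins that form microfibrils. Fbn1 had 1161, 1378, 1169, 1213 and 1346 normalised counts in WT and 915, 1007 and 1212 in Nipbl+/-. Across WaplΔ/+ libraries it ran from 948 through 1071 to 1201, and double heterozygotes from 1004 through 1122 to 1283. All 3 mutant groups overlapped WT. Fbn1 fell by 0.29 in Nipbl+/- (SE 0.08, adjusted p = 0.026) and by 0.25 in WaplΔ/+ (SE 0.06, adjusted p = 0.050), and stood at -0.15 in double heterozygotes (SE 0.07, adjusted p = 0.32). The Nipbl+/- call was lost without Nipbl+/- replicate 1 (adjusted p = 0.18) and the WaplΔ/+ call without WT replicate 1, 2 or 5 (up to 0.17).

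Fbn2, the fibrillin of embryonic tissue, was called lower in each mutant group at the edge of the threshold. It had 1867, 2063, 1813, 1988 and 1928 normalised counts in WT and 1506, 1561 and 2022 in Nipbl+/-. The WaplΔ/+ values ran from 1509 through 1556 to 1982 and double heterozygotes from 1389 through 1589 to 1881. In each mutant group some libraries reached into the WT range. The falls were 0.22 in Nipbl+/- (SE 0.07, adjusted p = 0.088), 0.24 in WaplΔ/+ (SE 0.06, adjusted p = 0.057) and 0.24 in double heterozygotes (SE 0.07, adjusted p = 0.074). Each call was lost without single libraries: 6 of 8 in Nipbl+/- (adjusted p up to 0.41), 4 of 12 in WaplΔ/+, all of them WT (up to 0.18), and 7 of 11 in double heterozygotes (up to 0.18).

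Fbln5 codes for fibulin-5, which assembles elastic fibres. The WT values were 276, 346, 332, 377 and 312 normalised counts and the Nipbl+/- values 262, 276 and 235. WaplΔ/+ libraries ran from 263 through 329 to 388, and double heterozygotes from 251 through 289 to 326. WT replicate 1 lay as low as the highest Nipbl+/- library. Fbln5 fell by 0.38 in Nipbl+/- (SE 0.09, adjusted p = 0.017), held without any single library and was lost when all 4 groups shared a fit (adjusted p = 0.13); its values in WaplΔ/+ and double heterozygotes were -0.04 (SE 0.10) and -0.20 (SE 0.08, adjusted p = 0.26). Eln, which codes for elastin itself, was at 2463 ± 204 in WT and 2159 ± 522 in Nipbl+/-, with a value of -0.22 (SE 0.10, adjusted p = 0.22).

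The related fibulins did not share that pattern. Fbln2 had 1079, 1173, 1162, 1284 and 1138 normalised counts in WT and 1352, 1392 and 1289 in Nipbl+/-, all above WT. Those levels were scaled over all 21 libraries, and the nearest values, 1289 and 1284, lay close together. Double heterozygotes ran from 1058, in replicate 5, through 1392 to 1481, and WaplΔ/+ libraries from 1011 through 1209.9 to 1381. Fbln2 rose by 0.17 in Nipbl+/- (SE 0.05, adjusted p = 0.037), lost without Nipbl+/- replicate 1 (adjusted p = 0.10), and stood at 0.21 in double heterozygotes (SE 0.07, adjusted p = 0.12) and 0.03 in WaplΔ/+ (SE 0.06). Fbln1 had 1259, 1359, 1344, 1441 and 1361 in WT and ran from 1448 through 1522 to 1602 in WaplΔ/+, all 7 libraries above all 5. It rose there by 0.15 (SE 0.04, adjusted p = 0.057), lost without WT replicate 1, 2 or 5 or WaplΔ/+ replicate 4 (adjusted p up to 0.17). Nipbl+/- libraries had 1455, 1313 and 1156, and double heterozygotes ran from 1247 through 1297 to 1358, with values of -0.08 (SE 0.06) and -0.07 (SE 0.04).

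Thrombospondins are secreted glycoproteins, some of which astrocytes use to induce synapses. Thbs4 had the largest rise of the 44 genes in Nipbl+/-, from a low level. The WT libraries had 49.8, 47.8, 68.7, 65.0 and 64.5 normalised counts and the Nipbl+/- libraries 94.5, 81.6 and 115. The range in WaplΔ/+ was from 56.4 through 72.4 to 73.8 and double heterozygotes from 68.0 through 90.9 to 119. All Nipbl+/- libraries were above WT, and of the double heterozygotes replicate 5 reached into the WT range. Thbs4 rose by 0.68 in Nipbl+/- (SE 0.15, adjusted p = 0.0093), with no library deciding the call, and by 0.62 in double heterozygotes (SE 0.14, adjusted p = 0.031), a call lost without WT replicate 1 (adjusted p = 0.11). The WaplΔ/+ value was 0.17 (SE 0.12, adjusted p = 0.55).

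Thbs1 went the other way. Its WT values were close together, at 995, 970.0, 1001, 993 and 993 normalised counts, and Nipbl+/- libraries had 812, 923 and 922. In WaplΔ/+ the libraries ran from 905 through 1059 to 1190.2 and double heterozygotes from 739.9 through 862 to 969. Every Nipbl+/- and double heterozygous library was below every WT library. The falls of 0.19 in Nipbl+/- (SE 0.05, adjusted p = 0.025) and 0.19 in double heterozygotes (SE 0.05, adjusted p = 0.090) were small; the first was lost without Nipbl+/- replicate 1 (adjusted p = 0.19) and the second without any of 7 of the 11 libraries in turn (up to 0.19). In WaplΔ/+ the value was 0.05 (SE 0.05). Thbs2 and Thbs3 were not called; Thbs2 stood at 0.37 in double heterozygotes (SE 0.19, adjusted p = 0.42) and Thbs3 at 0.19 in Nipbl+/- (SE 0.10, adjusted p = 0.33).

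Postn codes for periostin, a matricellular protein of fibroblasts. The WT libraries had 810.1, 789, 842, 812 and 754 normalised counts and the Nipbl+/- libraries 620.3, 531 and 758. Values in WaplΔ/+ went from 793 through 979.6 to 1129, and double heterozygotes from 626 through 710.1 to 875. Nipbl+/- replicate 3 just reached the WT range. Postn fell by 0.36 in Nipbl+/- (SE 0.08, adjusted p = 0.0085), a call that held without any single library and was lost when all 4 groups shared a fit (adjusted p = 0.12), and stood at 0.21 in WaplΔ/+ (SE 0.07, adjusted p = 0.16) and -0.12 in double heterozygotes (SE 0.07, adjusted p = 0.54).

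The remaining 14 connective tissue genes were called in no comparison. They include Fn1 and Vtn, which code for the adhesive glycoproteins fibronectin and vitronectin, Sparc, which codes for a collagen-binding matricellular protein, the small leucine-rich proteoglycans Dcn, Lum, Bgn, Ogn and Fmod, the matrilins Matn2 and Matn4, Tnxb, which codes for the tenascin of connective tissue, Eln, Thbs2 and Thbs3. In Nipbl+/- Fn1 was at 0.07 (SE 0.04), Sparc at -0.01 (SE 0.05) and Dcn at -0.01 (SE 0.06), the lowest being Matn2 at -0.22 (SE 0.09, adjusted p = 0.15). The proteoglycans Lum and Bgn stood at 0.32 (SE 0.10, adjusted p = 0.12) and 0.18 (SE 0.05, adjusted p = 0.11) in WaplΔ/+, and with library sizes scaled over all 21 libraries both were called higher.

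**Figure D4:**
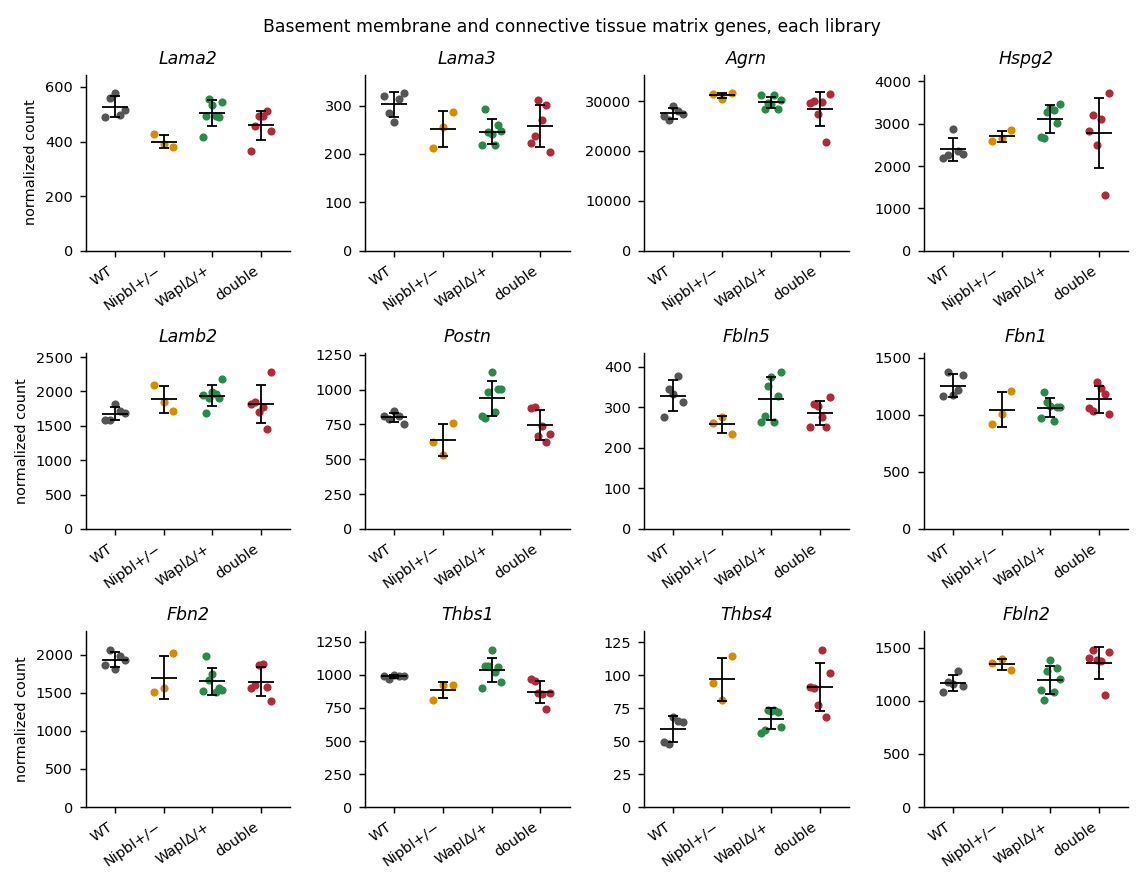
Normalised counts of 12 basement membrane and connective tissue matrix genes in each library (points) with the mean and SD of each genotype group (lines). The Nipbl+/- points lie below the WT points for Lama2 and Thbs1 and above them for Agrn, Fbln2 and Thbs4; double heterozygote replicate 5 gives the low outlying points of Agrn, Hspg2 and Fbln2.

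Summed over their members, the groups of matrix genes parted within libraries. The 8 neural matrix genes summed to 1989 to 2131 CPM in WT and to 1736 to 1947 CPM in Nipbl+/-, with 1784 to 1992 in WaplΔ/+ and 1713 to 1901 in double heterozygotes. The 14 basement membrane genes summed to 1479 to 1609.6 CPM in WT, 1637 to 1677 in Nipbl+/-, 1569 to 1716 in WaplΔ/+ and 1210.2 to 1758 in double heterozygotes, in which the lowest was replicate 5. Connective tissue genes summed to 1032 to 1165 CPM in WT, 1079.9 to 1114 in Nipbl+/-, 1046 to 1247 in WaplΔ/+ and 958 to 1228 in double heterozygotes. Neural matrix was thus lower in all Nipbl+/- and double heterozygous libraries than in any WT library, while connective tissue matrix overlapped in every group. The basement membrane sums of all 3 Nipbl+/- libraries were above every WT library, and they enter the divisor of the ratio that follows. The nearest of these sums, 1637 and 1609.6 CPM, were close. All sums were scaled over the 21 libraries, which moved the basement membrane median in Nipbl+/- from -0.01 to 0.02. Whether the sums stay apart under the scaling of the tests was not tested. The neural sum divided by the other sums together was 0.784 ± 0.0301 in WT (SD, n = 5), 0.656 ± 0.0455 in Nipbl+/- (n = 3), 0.678 ± 0.0403 in WaplΔ/+ (n = 7) and 0.671 ± 0.0700 in double heterozygotes (n = 6). Its lowest WT value, 0.735, was above all Nipbl+/- values, the highest of which was 0.708, and within the WaplΔ/+ and double heterozygous ranges, which reached 0.762 and 0.790. These sums are dominated by a few abundant genes, such as Ncan and Agrn, and are given as a description.

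**Figure D5:**
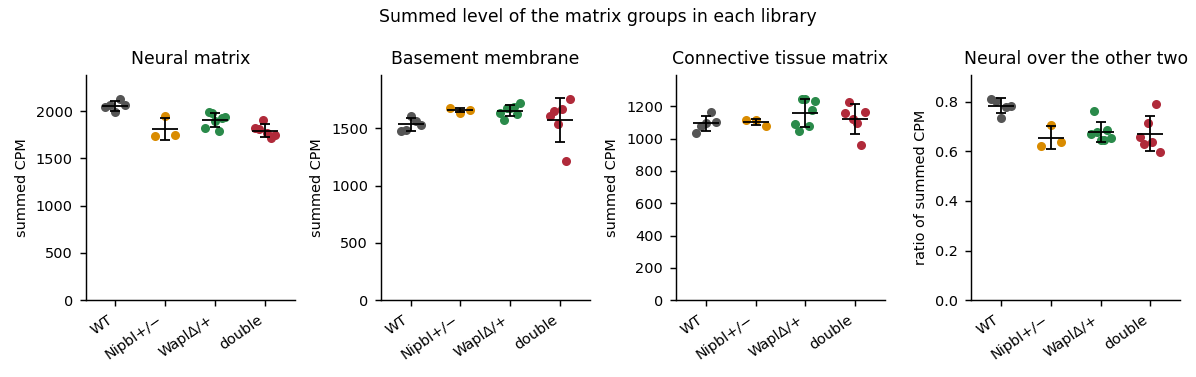
Summed CPM of the neural matrix, basement membrane and connective tissue matrix genes in each library, and the neural sum divided by the other sums together, by genotype (points, with mean and SD as lines). The neural sums of WT lie at 1989 to 2131 CPM, above all 3 Nipbl+/- and all 6 double heterozygous libraries; the basement membrane point at 1210.2 is double heterozygote replicate 5.

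Summed markers of the glial cells that make much of the neural matrix were also lower in Nipbl+/- and double heterozygotes. Every such library was below every WT library, except double heterozygote replicate 5 for the radial glia and astrocyte sum. Of 8 markers of radial glia and astrocytes, 6 fell in Nipbl+/-, none was called in WaplΔ/+ and 4 fell in double heterozygotes, and their summed level was 1008 to 1073 CPM in WT, 779 to 950.4 in Nipbl+/-, 879.6 to 1089 in WaplΔ/+ and 832 to 1032 in double heterozygotes. Of 5 markers of oligodendrocyte precursors, 4 fell in Nipbl+/-, none was called in WaplΔ/+ and 5 fell in double heterozygotes, with sums of 197 to 219, 143 to 184, 172 to 233 and 144 to 183 CPM. In WaplΔ/+ the values of all 8 radial glia and astrocyte markers were negative, with a median of -0.12. Of the 5 precursor markers 4 were negative there and 1 positive, with a median of -0.06. Double heterozygote replicate 5 had the lowest neural matrix sum of its group, 1713 CPM, with a radial glia and astrocyte sum of 1032 CPM, inside the WT range. In WaplΔ/+ replicates 6 and 7 the neural matrix sums of 1924 and 1933 CPM were below WT, and the radial glia and astrocyte sums were 1044 and 1089 CPM. Other libraries stood alike in both sums. Nipbl+/- replicate 2 was the highest of its group in both, at 1947 and 950.4 CPM. WaplΔ/+ replicate 5 was the lowest of its group in both, at 1784 and 879.6 CPM. Of 6 neuron markers, Snap25 fell in Nipbl+/- and none was called elsewhere. The neuron sums were 4452 to 4569 CPM in WT, 4239 to 4529 in Nipbl+/- and 4318 to 4591 in WaplΔ/+. In double heterozygotes they were 4283 to 5007 CPM, and the highest was replicate 5. No marker of these lists was at 0. Over all genes 6.96% were called lower in Nipbl+/-, 1.45% in WaplΔ/+ and 2.46% in double heterozygotes. In whole-brain RNA, fewer cells of a type and less RNA per cell cannot be told apart, and the part of the glial markers in the neural matrix values was not tested.

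Markers of fibroblasts and vessel cells, which make much of the other matrix, gave few calls. Of 10 meningeal fibroblast markers 1 fell in Nipbl+/- (Slc6a13, by 0.32), 1 rose in WaplΔ/+ (Gjb2, by 0.48) and 1 rose in double heterozygotes (Crabp2, by 0.27), with sums of 413 to 460.1 CPM in WT, 409 to 479 in Nipbl+/-, 433 to 548 in WaplΔ/+ and 399.7 to 485 in double heterozygotes. In WaplΔ/+ the values of all 10 were positive, with a median of 0.15, and their part in the basement membrane and connective tissue values was not tested. Of 7 mural cell markers, Rgs5 and Abcc9 fell in Nipbl+/- by 0.27 and 0.23, and Pdgfrb rose in WaplΔ/+ by 0.19. Of 8 endothelial markers, Cdh5 rose by 0.16 in Nipbl+/- and by 0.15 in WaplΔ/+. The lists for choroid plexus, skeletal muscle and blood had no called gene against WT. Over all genes 11.2% were called in Nipbl+/-, 2.22% in WaplΔ/+ and 3.28% in double heterozygotes. Of 6 pituitary markers Gh, a growth hormone gene, fell by 7.34 in WaplΔ/+. The summed pituitary markers were 88.2 CPM in WT replicate 2, 40.0 and 10.4 CPM in double heterozygote replicates 6 and 5, and at most 2.93 CPM in the other libraries.

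Many receptors for the matrix were also lower in Nipbl+/-. Of 25 receptor genes 13 fell and 1 rose there, with a median of -0.20, where 6.96% of all genes were called lower and 4.25% higher. The largest falls were those of Itga8 (0.48, SE 0.11), Itgav (0.47, SE 0.06) and Itgb8 (0.46, SE 0.09), which code for integrin subunits of the family that binds the arginine-glycine-aspartate motif of fibronectin and tenascins. Itga5, which codes for the fibronectin receptor subunit, rose by 0.33 (SE 0.07). In WaplΔ/+ Itga5 and Sdc1, a syndecan gene, rose by 0.32 (SE 0.07) and 0.17 (SE 0.04) and Ptprz1, which codes for a glial receptor phosphatase that binds tenascins, fell by 0.24 (SE 0.06). In double heterozygotes 8 receptors fell and none rose, led by Itga8 (0.35, SE 0.09), Itga9 (0.31, SE 0.08) and Ptprz1 (0.24, SE 0.06). Over all genes 2.22% were called in WaplΔ/+, and 2.46% were called lower in double heterozygotes.

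Of 18 enzymes that build glycosaminoglycan chains, 5 fell in Nipbl+/- and none rose. Chsy3, Csgalnact1 and Xylt1, which act in starting and extending chondroitin sulfate, fell by 0.51 (SE 0.10), 0.41 (SE 0.10) and 0.30 (SE 0.05). The same 3 genes led the 4 that fell in double heterozygotes, by 0.36 (SE 0.08), 0.32 (SE 0.08) and 0.32 (SE 0.06), and no enzyme was called in WaplΔ/+. Of 17 proteases, inhibitors and cross-linking enzymes, 4 fell in Nipbl+/-, led by Adamts9, a protease of versican (0.39, SE 0.08), Timp4 (0.37, SE 0.06) and Timp3 (0.30, SE 0.06), and Loxl1 and Mmp14 rose by 0.25 (SE 0.08) and 0.17 (SE 0.05). In WaplΔ/+ the cross-linking enzyme gene Lox and Mmp15 rose by 0.31 (SE 0.06) and 0.15 (SE 0.04), and in double heterozygotes Timp3 and Timp2 fell by 0.17 (SE 0.05) and 0.15 (SE 0.04). These counts compare with 11.2% of all genes called in Nipbl+/-, 2.22% in WaplΔ/+ and 3.28% in double heterozygotes.

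The direct comparison of the heterozygotes separated 3 matrix genes, all lower in Nipbl+/- than in WaplΔ/+, where 1.16% of all genes were called. Postn was lower by 0.57 (log2 fold change -0.57, SE 0.12, adjusted p = 0.031) and Vcan by 0.25 (-0.25, SE 0.06, adjusted p = 0.055), each with every Nipbl+/- library below every WaplΔ/+ library, and Lama2 was lower by 0.34 (-0.34, SE 0.08, adjusted p = 0.075), with ranges that overlapped through WaplΔ/+ replicate 1. The count of 3 was 8 without WaplΔ/+ replicate 1, and it was 1, Postn, without WaplΔ/+ replicate 3, 4 or 6 or Nipbl+/- replicate 3. Without Nipbl+/- replicate 1 the call was Fbln1, and without Nipbl+/- replicate 2 the calls were Thbs4 and Tnr, so that Postn, Vcan and Lama2 were lost in both cases. Calls over all genes went from 354 to 600 without WaplΔ/+ replicate 1. They were 128, 481 and 69 without Nipbl+/- replicate 1, 2 and 3. Over the 10 libraries left out in turn, Postn lost its call in 2, Vcan in 6 and Lama2 in 7. Within the libraries low in mt-Nd3, which hold 2 of the 7 WaplΔ/+ libraries, none of the 3 was called and the values were -0.34, -0.19 and -0.19. Tnr stood at -0.33 (SE 0.09, adjusted p = 0.13) and Thbs4 at 0.52 (SE 0.14, adjusted p = 0.12) and were not called, but DESeq2, no filter on low counts, the shared fit of all 4 groups and leaving out Nipbl+/- replicate 2 each called both, and the replicate block called Tnr.

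Between the double heterozygotes and the Nipbl+/- brains no matrix gene was called. edgeR called 0 of the 44, with 0.00655% of all genes called, and DESeq2 called 0. In edgeR 2 of the 44 had an unadjusted p under 0.05, as had 1259 of the 30552 genes tested. The 2 were Lama2 at 0.22 (SE 0.10) and Hapln1 at 1.33 (SE 0.62), the latter with replicate 1 at 305 counts. The interaction, which asks whether the double heterozygotes depart from the sum of both single effects, called 0 of the 44 in edgeR, where 0% of all genes were called. An unadjusted p under 0.05 was found for 9 of the 44 and for 4221 of the 30552 genes tested. The first of the 9 by p were Reln at 0.46 (SE 0.12, adjusted p = 0.20), Fbn1 at 0.35 (SE 0.11, adjusted p = 0.20) and Tnr at 0.35 (SE 0.12, adjusted p = 0.21), each above the sum of the single effects, and DESeq2 called these 3. The edgeR count was 4 without double heterozygote replicate 6, which added Lamb2, and 1, Reln, without WaplΔ/+ replicate 2. Over all genes the interaction then called 945 and 253, and DESeq2 called 793.

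The 13 genes that fell in Nipbl+/- had gene spans with a median of 87.7 kb, from 15.3 kb for Thbs1 to 636 kb for Lama2, against 44.8 kb for the other 31 members and 17.1 kb for the 21900 protein-coding genes of the RefSeq table. Reln, with 460 kb on chromosome 5, and Tnr, with 408 kb, follow Lama2. Vcan and Hapln1, the closest pair of members, both fell in Nipbl+/-, and Dcn and Lum, 47.3 kb apart on chromosome 10, were both uncalled in every comparison.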

How the data were processed

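The authors trimmed reads with cutadapt 2.4, aligned them to the mouse genome (mm10, GRCm38.p6) with STAR 2.5.3a and counted them per gene with featureCounts of Subread 1.6.4, as the submitters' processing notes list these tools. The deposited values are raw counts per gene. Whether counting used strand is not given in the sources used here, so members that overlap another gene are uncertain. From the counts, genes with at least 10 normalised counts summed over the 21 libraries were kept and each comparison was fitted on its own libraries with edgeR 4.0.16 (quasi-likelihood test, TMM scaling; limma 3.58.1, R 4.3.3), the interaction on all libraries, with an adjusted p of 0.1 as the threshold. Printed levels were scaled by TMM over all libraries. DESeq2 1.42.0, other scalings and filters, a threshold of 0.05, a shared fit, a replicate block, the mt-Nd3 sets and leaving out each library were alternatives. The fits were tested on simulated data. Every member called in a comparison is named with its values, and the others by counts and ranges. The members and gene lists were chosen with earlier results of these data known. Total counts were 25682566 to 35818767 per library, and p-values measure the spread between these embryos, whose litters the labels do not give.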

Additional observations from a re-analysis of the deposited data

Results flagged for a closer look

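Within genotype groups of 4 to 10 libraries, 11 of the 132 sets of values held a highest or lowest library separated from the others by more than Dixon's 95% critical value, and chance flags about 1 in 20 such sets. Double heterozygote replicate 5 was the lowest of its group for Ncan at 15657 normalised counts, for Fn1 at 4675, for Nid1 at 3261 and for Fbln2 at 1058. Double heterozygote replicate 1 was the highest of its group for Hapln1 at 305 and for Matn4 at 241. WT replicate 3 was the highest WT library for Hspg2 at 2878 and for Lamb3 at 63.8, and WT replicate 2 was the lowest for Thbs1 at 970.0. Among WaplΔ/+ libraries, replicate 2 stood apart for Thbs3 at 1964 and replicate 4 for Matn2 at 491.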

How the results depend on the processing

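No called member changed sign under any alternative. In Nipbl+/- against WT the calls of Lama2, Thbs4, Tnr, Vcan, Sparcl1 and Reln held under all 18 alternatives, as did those of Tnr and Vcan in double heterozygotes under all 21, while none of the 9 WaplΔ/+ calls and none of the 3 calls between the heterozygotes held throughout. With all 4 groups in one fit, called members numbered 6 in Nipbl+/-, 0 in WaplΔ/+ (0 neural) and 4 in double heterozygotes (3 neural), and 6 between the heterozygotes. Among low mt-Nd3 libraries they numbered 10, 0 (0 neural), 5 (3 neural) and 0, and with the mt-Nd3 set as a term 4 (1 neural) in WaplΔ/+ and 0 between the heterozygotes. At a threshold of 0.05 they numbered 2 (1 neural) in WaplΔ/+, 4 (3 neural) in double heterozygotes and 1 between the heterozygotes. DESeq2 called 15 in WaplΔ/+, 6 between the heterozygotes and 3 for the interaction, and with no filter 6 were called between the heterozygotes. Same-numbered libraries did not all deviate together (correlations from -0.188 to 0.172 against WT, 0.346, 0.0892 and 0.0583 between double heterozygotes and Nipbl+/-, and 0.472, 0.0108 and -0.237 between the heterozygotes), so the numbers were not taken as pairs; a replicate block gave 11 called members in Nipbl+/-, 14 (5 neural) in WaplΔ/+, 3 (2 neural) in double heterozygotes and 2, Eln and Hapln1, between double heterozygotes and Nipbl+/-. Leaving out each library gave 11 to 19 in Nipbl+/- (neural 5 to 7), 0 to 16 in WaplΔ/+ (neural 0 to 3), 3 to 15 in double heterozygotes (neural 3 to 7), 1 to 8 between the heterozygotes and 0 to 4 for the interaction. Over all genes, the 3422 called in Nipbl+/- became 1658 in the shared fit, 1893 with the block and 1881 among low mt-Nd3 libraries. The 677 in WaplΔ/+ became 1422 in DESeq2, 181 at 0.05, 7 in the shared fit, 1991 with the block, 305 with the mt-Nd3 term and 47 among low mt-Nd3 libraries. The 1001 in double heterozygotes became 547 at 0.05, 602 in the shared fit and 535 with the block. The 354 between the heterozygotes became 647 in DESeq2, 196 at 0.05, 568 in the shared fit and 8 among low mt-Nd3 libraries. With each library left out, all-gene calls numbered 1828 to 4788 in Nipbl+/-, 9 to 1534 in WaplΔ/+ and 454 to 2504 in double heterozygotes. The cause of these differences was not tested.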
